A study of Mus musculus with 2 samples.

Results

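The genes described here encode 50 pre-mRNA splicing factors of the mouse, taken by symbol from the 55536 genes of the GENCODE M21 annotation. They were 10 SR proteins, 2 Tra2 proteins, 20 hnRNP proteins, 3 PTB proteins, 9 regulators of the Rbfox, Mbnl, Celf, Qk and Tia families, 4 factors of the 3' splice site and its branch point, and the kinases Clk1 and Clk4. All 50 symbols were found. The RNA came from whole limbs of B6NCrl embryos at 12.5 days of development, in 1 group of 2 libraries that the labels call biological replicates. Replicate 1 pooled 88 embryos and replicate 2 pooled 68 embryos, both sexes together and healthy, and no transgene, deletion or treatment was recorded. Each library was made from 10 ng of total RNA by oligo-dT priming, with ERCC spike-in RNA added. With 1 group there were no conditions to compare, so every p-value below compares 2 libraries only, and the labels do not say whether the pools shared litters.

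SR proteins bind exonic enhancers through RNA recognition motifs and recruit the spliceosome through domains rich in arginine and serine, while many hnRNP and PTB proteins bind silencers and oppose them. Genes of both families are textbook cases of self-limitation: the protein promotes an unproductive splice form of its own pre-mRNA, either with a poison exon that carries an early stop codon or with an intron left in. A stop codon well upstream of the last exon junction marks an mRNA for nonsense-mediated decay (NMD) in the cytoplasm, and transcripts with retained introns are often held in the nucleus. Clk kinases phosphorylate SR proteins, and their own transcripts are known for introns that are removed late.

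The measure followed for each gene was its decay share. This is the part of its transcript abundance in entries that the annotation types as nonsense_mediated_decay or retained_intron, as a percentage of those entries plus the protein_coding ones. Abundance is in TPM, a unit of transcript abundance which the authors normalised for length and depth. The types are annotation labels, and neither decay nor nuclear retention was measured.

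The letters of the poison exons show what separates some of the NMD transcripts from the coding ones. In 13 of the 50 genes, 24 distinct internal exons lay outside every coding transcript and carried the annotated stop codon of an NMD transcript. They were 40 to 460 nt long with a median of 109.5 nt, and the stop came 5 to 144 bases after the exon's start. The stop was TGA in 13, TAA in 7 and TAG in 4. The exons of the 9 genes with the most abundant such transcripts are shown from their first base to the stop codon, which is in capitals, 5′ to 3′ on the gene's own strand, with GRCm38 (mm10) coordinates of the whole exon and sequence from the GENCODE M21 transcripts.

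Srsf3 (chr17:29039454-29039909, plus strand, 456 nt): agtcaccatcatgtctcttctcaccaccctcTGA

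Tra2b (chr16:22258986-22259261, minus strand, 276 nt): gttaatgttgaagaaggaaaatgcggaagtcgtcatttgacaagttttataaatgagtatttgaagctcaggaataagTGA

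Rbm39 (chr2:156178880-156178952, minus strand, 73 nt): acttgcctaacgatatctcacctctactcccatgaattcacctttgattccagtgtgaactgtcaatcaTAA

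Srsf7 (chr17:80204622-80205081, minus strand, 460 nt): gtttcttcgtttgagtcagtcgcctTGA

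Srsf11 (chr3:158024123-158024231, minus strand, 109 nt): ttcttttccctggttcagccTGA

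Hnrnpll (chr17:80044940-80045022, minus strand, 83 nt): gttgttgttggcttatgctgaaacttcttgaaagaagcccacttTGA

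Srsf4 (chr4:131884276-131884482, plus strand, 207 nt): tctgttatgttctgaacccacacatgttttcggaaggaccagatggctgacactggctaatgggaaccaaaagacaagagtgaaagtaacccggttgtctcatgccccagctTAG

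Tra2a (chr6:49252803-49253108, minus strand, 306 nt): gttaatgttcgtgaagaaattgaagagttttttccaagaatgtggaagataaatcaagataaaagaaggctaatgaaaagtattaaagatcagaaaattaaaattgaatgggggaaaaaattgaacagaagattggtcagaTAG

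Tia1 (chr6:86423606-86423671, plus strand, 66 nt): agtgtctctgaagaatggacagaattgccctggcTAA

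Paralogous genes were compared in these exons. Both Tra2 exons opened with the same 9 bases, gttaatgtt, but aligned at the stop codon they held the same base at 18 of 81 positions. The Tia1 exon resembled that of its paralogue Tial1, which was chosen for this comparison after its sequence was seen and whose transcript was rare at 0.85 and 0.82 TPM.

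Tial1 (chr7:128446731-128447107, minus strand, 377 nt): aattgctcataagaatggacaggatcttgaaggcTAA

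In both genes the stop fell at base 37, and 25 of the 37 positions held the same base, among them a run of 12. The Srsf3 and Srsf7 exons held the same base at 9 of 28 positions, and no more than 5 bases in a row in common. The exon of Srsf3 was present in 78.2 TPM of transcript in replicate 1 and 88.7 TPM in replicate 2, 12.5% and 13.5% of the gene. That of Tra2b stood at 45.8 and 56.4 TPM, 12.7% and 14.9% of the gene. The Rbm39 exon stood at 35.6 and 31.7 TPM over 4 transcripts, and that of Srsf7 at 20.0 and 18.6 TPM. The other 5 of the 9 genes above had their exon at 2.97 to 8.78 TPM in either library, and 4 of the 24 exons were listed at 0 in both.

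**Figure D1:**
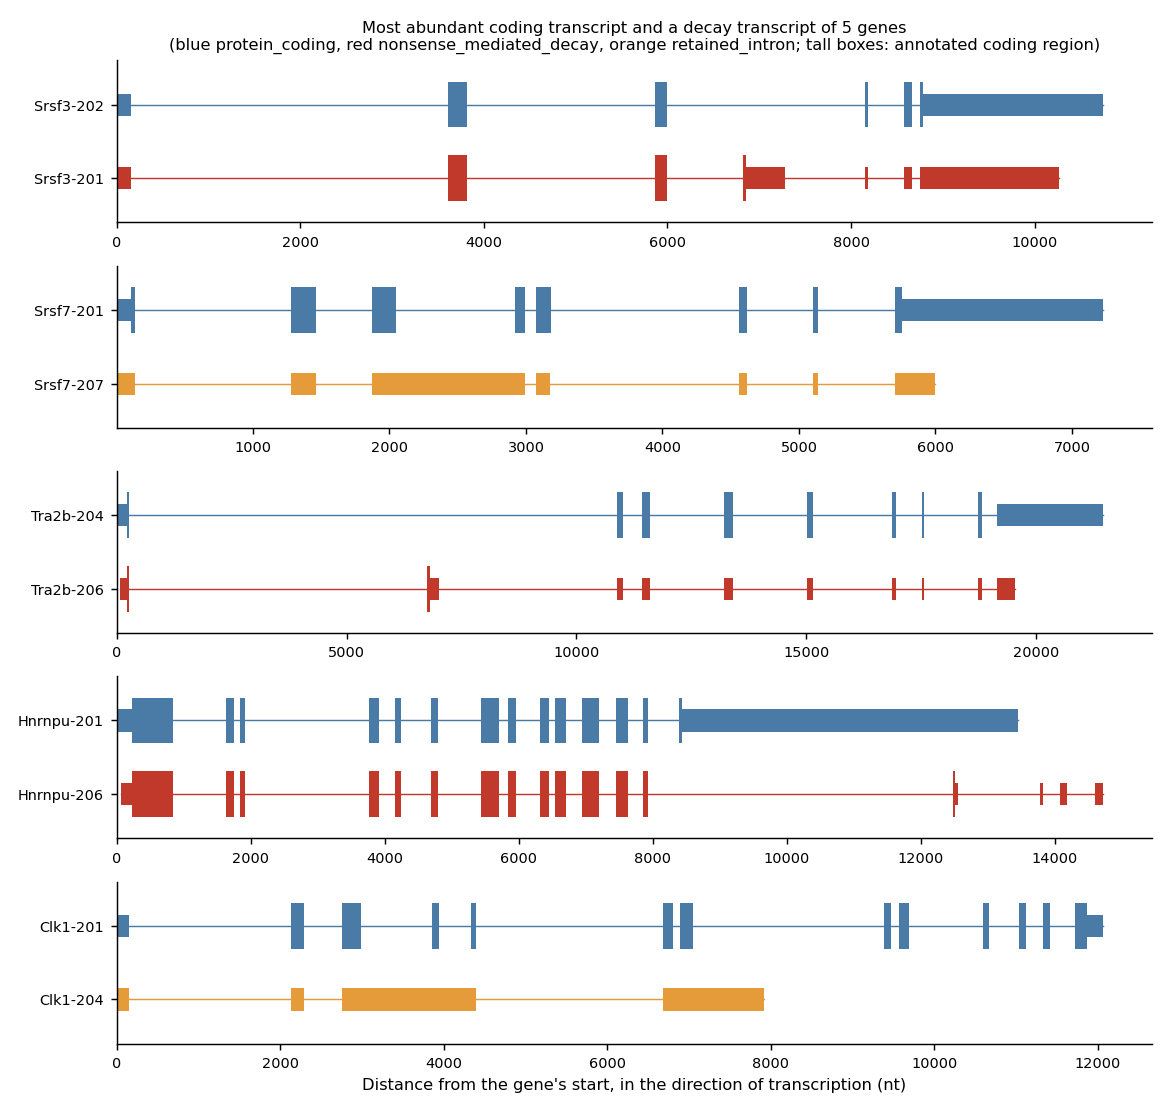
Exon structure of the most abundant coding transcript (blue) and a decay transcript (red, NMD; orange, retained intron) of Srsf3, Srsf7, Tra2b, Hnrnpu and Clk1, by distance from the gene's start in nt; tall boxes are annotated coding regions and low boxes other exonic sequence. Srsf3-201 and Tra2b-206 each add 1 exon in which the coding region ends, Srsf7-207 keeps an intron of 874 nt, Hnrnpu-206 differs after the last but one coding exon, and Clk1-204 stops short of the gene's 3' end and joins exons through 3 whole introns.

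The samples carried the genes of a whole limb. All 7 listed limb mesenchyme genes, all 3 of cartilage, all 4 of muscle and all 3 each of red blood cells, endothelium, epidermis and macrophages reached 1 TPM in both libraries. Red blood cell genes summed to 8392 and 8347 TPM, limb mesenchyme genes to 961 and 1018 TPM. Of the listed genes of other organs, 3 of 5 neuronal, 1 of 2 liver and 1 of 2 heart genes did so, with Nkx2-5 at 0 in both. Expected counts over genes came to 29633457 and 30118921, and spike-ins took 3.19% and 2.24% of the reads. In such bulk tissue, fewer cells of a type and less RNA per cell cannot be told apart.

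All 50 splicing factors were transcribed in the limb at 1 TPM or more in both libraries, against 58.1% of 22028 protein-coding genes. At 100 TPM or more in both libraries stood 37 of them, against 7.29% of protein-coding genes. Their median was 242.5 TPM. The most abundant was Hnrnpa2b1, an hnRNP that binds nascent transcripts and takes part in mRNA transport, at 2033 and 1827 TPM, rank 22 among protein-coding genes. It was followed by Hnrnpk, a KH-domain protein that binds pyrimidine-rich RNA, at 1639 and 1642 TPM, and by Hnrnpa1, a silencer-binding splicing repressor, at 1076 and 1147 TPM. The libraries kept this order, with no overlap between these genes, but with the older GENCODE M4 annotation Hnrnpk led at a mean of 1810 TPM, ahead of Hnrnpa1 at 1147 TPM and Hnrnpa2b1 at 1073 TPM. Hnrnpul2 was lowest at 5.22 and 4.81 TPM and was the only member under 10 TPM in either library.

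Among the SR genes, Srsf2 led at 784 and 809 TPM, ahead of Srsf7 at 651 and 680 TPM and Srsf3 at 623 and 659 TPM. Srsf2 binds exonic enhancers and stays in the nucleus, while Srsf3 and Srsf7 also serve as adaptors of mRNA export. Srsf7 and Srsf3 did not differ beyond their spread. With M4, Srsf3 led at a mean of 966 TPM, ahead of Srsf2 at 843 TPM, and Srsf7 stood at 434 TPM. Srsf4 was the lowest SR gene at 126.5 and 125.9 TPM, within the range of Tra2a at 118.1 and 134.4 TPM. Tra2b, an activator of exons with purine-rich enhancers, stood at 361 and 378 TPM. The PTB family, repressors of exons flanked by pyrimidine tracts, ranged without overlap from Ptbp1 at 315 and 297 TPM over Ptbp2 at 114.7 and 119.4 TPM to Ptbp3 at 32.9 and 31.8 TPM.

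The regulators of the Rbfox, Mbnl, Celf, Qk and Tia families were the lowest group, with a median of 49.2 TPM and 1 of 9 at 100 TPM or more in both libraries. That gene was Tia1, a U-rich RNA-binding protein of stress granules that helps define weak 5' splice sites, at 233 and 264 TPM. Celf1 stood at 88.2 and 99.9 TPM, Mbnl2 at 63.1 and 63.0 TPM, and Mbnl3, the least abundant, at 10.4 and 11.1 TPM. At the 3' splice site, Rbm39, an RS-domain coactivator related to U2af2, stood at 592 and 658 TPM. The subunits of U2 auxiliary factor, which reads the AG and the pyrimidine tract, stood at 337 and 328 TPM for U2af1 and at 133.8 and 139.6 TPM for U2af2. Sf1, which binds the branch point, stood at 133.7 and 130.9 TPM. Clk1 held 159.8 and 160.9 TPM, and Clk4 131.6 and 135.1 TPM.

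**Figure D2:**
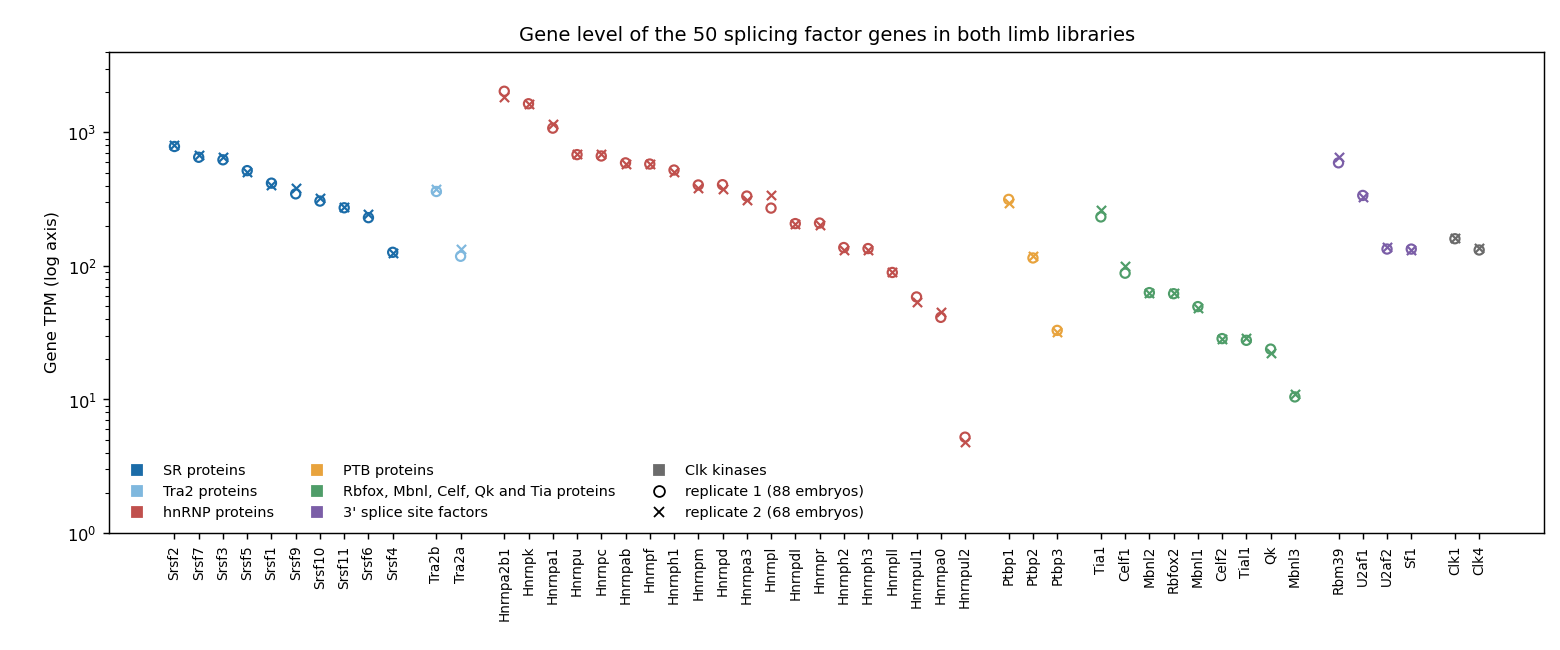
Gene TPM (log axis) of the 50 genes, grouped by role and sorted within a role, with replicate 1 as open circles and replicate 2 as crosses. The 2 libraries lie close together for each gene; Hnrnpa2b1 is highest at a mean of 1930 TPM and Hnrnpul2 lowest at 5.01 TPM.

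Decay entries were a large part of the transcript abundance of many splicing factor genes. The annotation gives decay transcripts to 43 of the 50 genes, as it does to 64.0% of the 13028 protein-coding genes whose mean reached 1 TPM, and none to Srsf10, Hnrnpa0, Hnrnpab, Hnrnpf, Hnrnph1, Hnrnph2 and Celf1, which therefore have no decay share. Over the 43 genes the median decay share was 25.3%, with 24.2% in replicate 1 and 25.9% in replicate 2. Over the 8336 protein-coding genes of that level with both kinds of transcript it was 13.9%. At 25% or more in both libraries stood 21 of 43 members (48.8%), against 29.5% of those 8336 genes. At 10% or more stood 31, against 53.7%, and at 50% or more 4, against 11.0%. The members thus stood above the rest at a share of 25% but not at 50%, where the count of 4 was near the background.

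The number of annotated decay transcripts moved with this contrast. Members had a median of 4 decay transcripts per gene, and all 8336 genes a median of 2. Among genes with 4 or more decay transcripts, a division chosen after the data were seen, the median decay share was 28.1% over 27 members and 29.2% over all 2539 such genes. Among genes with fewer, it was 7.84% over 16 members and 8.71% over 5797 genes. At 25% or more in both libraries stood 17 of the 27 members (63.0%) and 53.2% of the genes in the first class, and 4 of the 16 members and 19.1% of the genes in the second. Abundant genes, with a mean of at least 100 TPM, gave the widest gap, 27.4% over 32 members against 7.66% over all 1214 such genes. The part of the number of annotated transcripts in the contrast over all genes was not tested.

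Retained introns outweighed NMD entries in most members. The retained_intron part was the larger in 31 genes and the NMD part in 12. With each type taken alone, 41 members had a retained_intron share (median 13.0%) and 34 an NMD share (median 9.79%). Over all protein-coding genes compared, 7590 had a retained_intron share (median 11.9%) and 3645 an NMD share (median 5.12%). Retained introns thus had more genes and a higher median there too. Which part was larger gene by gene was not counted outside the members. In all, the 50 genes have 568 annotated transcripts, of which 261 are protein_coding, 75 NMD, 155 retained_intron and 77 processed_transcript, a noncoding type that the decay share leaves out. Retained_intron entries of the members summed to 2944 and 3063 TPM, and NMD entries to 1280 and 1298 TPM. Protein_coding entries summed to 12523 and 12455 TPM. Of the 75 NMD transcripts, 74 have a junction more than 50 nt after the stop codon, the distance usually taken to trigger decay. Type and stop codon both come from the annotation, so this count is not separate evidence of decay. Coding regions under 50% of the gene's longest were annotated in 58 of the 75, with a median of 21.9%.

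The 2 decay types differ in how they are told from coding transcripts. Stop codons in cassette exons, as printed above, accounted for 29 NMD transcripts and 18.3% and 19.3% of the NMD abundance. The largest part, 55.3% and 55.2%, was in 29 other NMD transcripts of 17 genes. Their stop codon neither lay in or after a cassette exon nor was that of a coding transcript. Transcripts that end on the stop codon of a coding transcript but carry a junction after it accounted for 25.7% and 24.9%. Retained_intron entries that span a whole intron of a coding transcript held 48.6% and 47.0% of that type's abundance, in 50 entries of 26 genes. Most of the rest, 50.3% and 52.0% of that type's abundance, was in entries with bases outside coding exons but no whole intron of a coding transcript. Where those entries start and end was not examined. No base outside coding exons was found in 22 of the 75 NMD transcripts, which held 26.6% and 23.5% of the NMD abundance, so that their estimates rest on junctions and read positions alone.

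**Figure D3:**
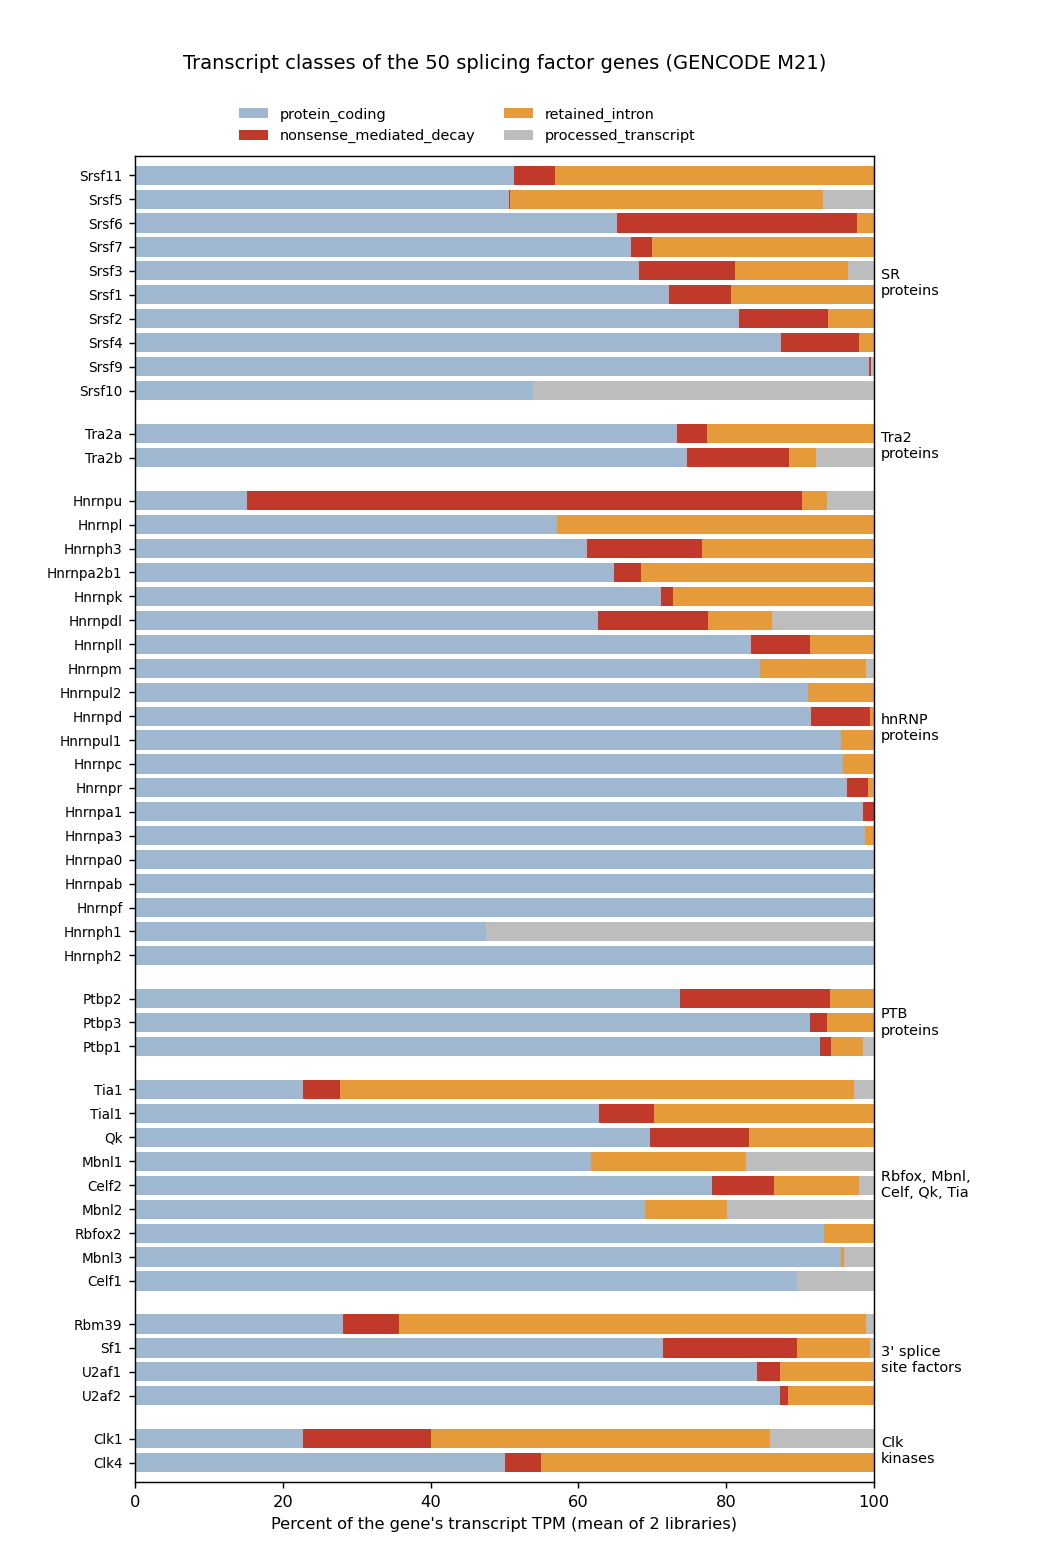
Percentage of each gene's transcript TPM in protein_coding, nonsense_mediated_decay, retained_intron and processed_transcript entries, mean of 2 libraries, by role and sorted by decay share. Hnrnpu is mostly red (NMD), Tia1, Rbm39 and Clk1 are mostly orange (retained intron), and Hnrnph1 and Srsf10 hold large grey parts (processed_transcript).

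Among the SR proteins, 6 of the 9 genes with decay transcripts reached 25% in both libraries, and the median was 29.3%. Srsf11, an SR-related protein associated with U2 auxiliary factor, was highest at 50.3% and 47.2%, spread over 14 decay transcripts of which none exceeded 37.7 TPM. Srsf5, an enhancer-binding SR protein, stood at 45.9% and 45.3%, almost all of it in 1 retained_intron transcript, Srsf5-212. At 216 and 205 TPM that transcript was the most abundant of its gene, above the coding Srsf5-201 at 125.7 and 136.9 TPM. The intron it keeps is 1229 nt long. The entry has the weak support level 5 in the annotation, and with entries of level 1 or 2 alone the share of Srsf5 was 2.41%.

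Srsf6, a regulator of alternative exons, stood at 34.4% and 35.2% almost all of it NMD. Srsf6-201, the NMD entry, held 74.7 and 79.0 TPM, 32.5% of the gene in each library. It too has support level 5, and the share of Srsf6 was 3.40% with levels 1 and 2 alone and 20.4% by reads not divided by length. NMD was also the larger part in Srsf2, Srsf4 and Srsf9, and retained introns in the other five SR genes. Srsf7 stood at 32.9% and 32.8%, mainly in Srsf7-206 and Srsf7-207, which keep the 874-nt intron in which the poison exon lies. Srsf3 stood at 28.7% and 29.9%, divided between the poison exon transcript and retained introns. Its retained intron of 2150 nt, in Srsf3-204 at 51.5 and 52.9 TPM, also spans its poison exon. Srsf1 stood at 28.3% and 27.0%, or 7.73% by undivided reads, Srsf2 at 18.7% and 17.9%, and Srsf4 at 12.4% and 12.8%. The largest decay transcript of Srsf2, Srsf2-204 at 99.4 and 91.9 TPM, shares 448 nt with exons of Mettl23 on the opposite strand. Srsf9 was lowest of the SR genes at 0.261% and 0.359%.

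Donor sites of the 5 most abundant whole retained introns, and of the longer introns in Clk1-204, are shown because the intron is the part that a coding transcript lacks. Each line gives the last 3 exon bases and the first 6 intron bases, with the GT in capitals, and coordinates of the intron.

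Hnrnpk (chr13:58393775-58393852, minus strand, 78 nt): atgGTaagt

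Hnrnpa2b1 (chr6:51463255-51463410, minus strand, 156 nt): tggGTaagt

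Srsf5 (chr12:80947866-80949094, plus strand, 1229 nt): cagGTttgt

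Srsf7 (chr17:80204388-80205261, minus strand, 874 nt): cagGTattt

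Hnrnpl (chr7:28821274-28821391, plus strand, 118 nt): aaaGTgagt

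Clk1 (chr1:58419734-58420120, minus strand, 387 nt): gatGTatag

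Clk1 (chr1:58420212-58421082, minus strand, 871 nt): gggGTatga

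These introns differed in size and in donor letters. Those of Hnrnpk and Hnrnpa2b1, at 78 and 156 nt, were short and opened with gtaagt, a usual donor. The 118-nt intron of Hnrnpl opened with gtgagt, which differs from gtaagt only by a g in place of an a. The longer introns of Srsf5, Srsf7 and Clk1 opened with other letters, while the remaining intron of Clk1-204, of 87 nt, opened with gtaagt. Less abundant retained introns broke this pattern, such as one of 1391 nt in Tia1 with gtaagt and one of 78 nt in Hnrnpa3 with gtattt. Whether donor letters go with intron length was not tested. Entries holding the Hnrnpk intron summed to 309 and 289 TPM, and the entry with the Hnrnpa2b1 intron stood at 311 and 275 TPM.

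The Tra2 genes stood at 25.6% and 27.5% for Tra2a and at 17.5% and 20.5% for Tra2b. In Tra2b, NMD was the larger part at 13.5% and 16.5%. In Tra2a, retained introns were larger at 21.7% and 23.5%, mainly in Tra2a-203 at 24.6 and 30.4 TPM, of which 3595 nt lie outside coding exons.

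The hnRNP genes spanned the widest range, from 1.10% in Hnrnpa3 to 83.9% in Hnrnpu, with a median of 14.5% over 15 genes and 6 at 25% or more in both libraries. Hnrnpu encodes a nuclear matrix protein that binds RNA and DNA, and its decay share was the highest of all members at 83.4% and 84.4%. NMD entries held 79.3% and 81.3%, led by Hnrnpu-206 at 393 and 398 TPM, against 106.1 and 101.2 TPM for the coding Hnrnpu-201. The annotated coding region of Hnrnpu-206 is 2379 nt long, 99.1% of the 2400 nt in the coding transcript, and it has 3 junctions after its stop codon, the last 183 nt downstream. Thus most of what counts as decay in Hnrnpu was a transcript with a nearly complete coding region and another 3' end. The coding entry is 7640 nt long and the NMD entry 2844 nt, and by reads not divided by length the decay share was 59.1%.

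Hnrnpl, which binds CA repeats, stood at 37.9% and 47.8%, all of it in retained_intron entries. Hnrnph3 stood at 36.5% and 41.1%, Hnrnpa2b1 at 35.1% in both, Hnrnpk at 29.5% and 28.1%, and Hnrnpdl at 25.3% and 29.2%. Most of this was retained_intron in the most abundant members, 31.2% and 31.8% of Hnrnpa2b1 and 27.9% and 26.3% of Hnrnpk. By reads not divided by length the share of Hnrnpk was 11.3%. Its largest decay entry, Hnrnpk-217, is 874 nt long. At the other end, Hnrnpa1 stood at 1.44% and 1.43%, and Hnrnpa3 at 1.01% and 1.19%. Hnrnpr stood at 6.36% in replicate 1 and 0.775% in replicate 2, where the NMD entry Hnrnpr-206 was listed at 11.9 TPM and at 0.

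In 2 of the 7 genes with no decay entry, much of the abundance was in the noncoding processed_transcript type. It held 52.6% and 52.3% of Hnrnph1, which binds G-rich silencers and enhancers, spread over 15 entries. It held 44.1% and 48.2% of Srsf10, an SR protein that represses splicing when it is dephosphorylated. In all, 6 members held 10% or more of their abundance in that type in both libraries. Genes outside the members were not counted in this way.

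Of the PTB genes, Ptbp2, the neuronal paralogue, stood at 26.6% and 25.9%, and Ptbp1 and Ptbp3 at 5.11% to 9.55%. NMD was the larger part in Ptbp2 at 21.2% and 19.4%, mainly in Ptbp2-206 at 23.1 and 22.6 TPM, an entry of 576 nt with no base outside coding exons. By reads not divided by length the share of Ptbp2 was 9.76%.

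Tia1 had the second highest decay share of all members at 76.1% and 77.1%, spread over 18 decay transcripts, 14 of them retained_intron. The leading entry was Tia1-213, a retained_intron transcript of 2024 nt at 36.5 and 42.8 TPM, against 29.8 and 32.6 TPM for the coding Tia1-202. Its paralogue Tial1 stood at 34.2% and 40.1%. The STAR protein gene Qk stood at 30.2% and 30.3%, Mbnl1 at 24.2% and 26.4%, and Mbnl3 at 0.287% and 0.394%. No NMD transcript is annotated for Rbfox2, Mbnl1, Mbnl2 or Mbnl3.

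Of the 3' splice site factors, Rbm39 stood apart from the other three at 69.3% and 73.8%. Its most abundant transcript was Rbm39-205, a retained_intron entry of 1008 nt at 178 and 238 TPM, ahead of the coding Rbm39-201 at 90.2 and 92.0 TPM. Sf1 stood at 25.1% and 31.1%, U2af1 at 16.5% and 14.9%, and U2af2 at 12.9% and 12.4%. The Clk kinase genes were both high. Clk1 stood at 71.4% and 75.9%, with Clk1-204, which keeps 3 introns over 1345 nt, at 37.1 and 38.0 TPM and the coding Clk1-201 at 39.5 and 33.2 TPM. Clk4 stood at 49.6% and 50.3%, with 44.4% and 45.6% in retained_intron entries.

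Single shares depended on which entries were counted and how. With support levels 1 and 2 alone, 33 members kept a share, which was over 1.5 times lower in 12 and over 1.5 times higher in 3. Besides Srsf5 and Srsf6, the 12 included Tial1 at 4.38%, Ptbp2 at 4.02%, Hnrnpdl at 12.2%, Srsf2 at 7.12%, Srsf4 at 2.21% and Hnrnpm at 2.85%. The 3 higher ones were Qk at 48.1%, Hnrnpk at 44.0% and Mbnl1 at 41.6%. Hnrnpu, Tia1, Clk1 and Rbm39 stayed the highest, at 68.3% to 80.2%. By reads not divided by length, the share was over 1.5 times lower in 18 of 43 members and higher in 2. Among the 18 were Rbm39 at 43.3%, Hnrnpl at 26.1%, Tial1 at 22.0%, Qk at 14.0%, Srsf2 at 10.3%, Srsf4 at 7.24% and Hnrnpm at 5.00%, and among the higher was Tra2a at 42.1%.

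A decay transcript was the most abundant transcript of the gene in both libraries in 4 members, Srsf5, Hnrnpu, Tia1 and Rbm39, against 8.51% of the 8336 genes. In Clk1 the retained_intron transcript led on the mean and in replicate 2, and the coding one in replicate 1. Those 4 of 43 members are near the background share.

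The decay shares differed little between the libraries. The difference had a median size of 1.22 percentage points over the 43 genes and was largest in Hnrnpl at 9.86 points. It was positive in 29 genes, higher in replicate 2, and negative in 14. The 8336 genes leaned the same way, with 4730 positive and 3244 negative. No member differed by 10 points or more with an adjusted p under 0.05 (Fisher's exact test on rounded expected counts, Benjamini-Hochberg over 8336 genes), whereas 5.93% of those genes did, 3.68% higher in replicate 2 and 2.24% higher in replicate 1. The test takes reads not divided by length, while the points are of the TPM share, so a small p alone is not a change in decay share. Qk had an adjusted p of 9.82e-07 by Fisher's exact test at shares of 30.2% and 30.3%. At an unadjusted p under 0.05 of any size there were 20 members, against 2760 of the 8336 genes. At an adjusted p there were 18, against 24.6% of those genes, and these shares were not matched for level. At 5 points or more, 4 members passed with the same test, against 14.2% of the 8336 genes: Hnrnpl (adjusted p = 3.07e-11), Hnrnpm at 10.8% and 18.2% (5.44e-15), Hnrnpr (4.21e-31) and Sf1 (0.00132). In Hnrnpl the retained_intron entry Hnrnpl-210, of 672 nt, stood at 49.1 TPM in replicate 1 and 102.9 TPM in replicate 2, while the coding Hnrnpl-201 stood at 108.5 and 117.0 TPM.

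**Figure D4:**
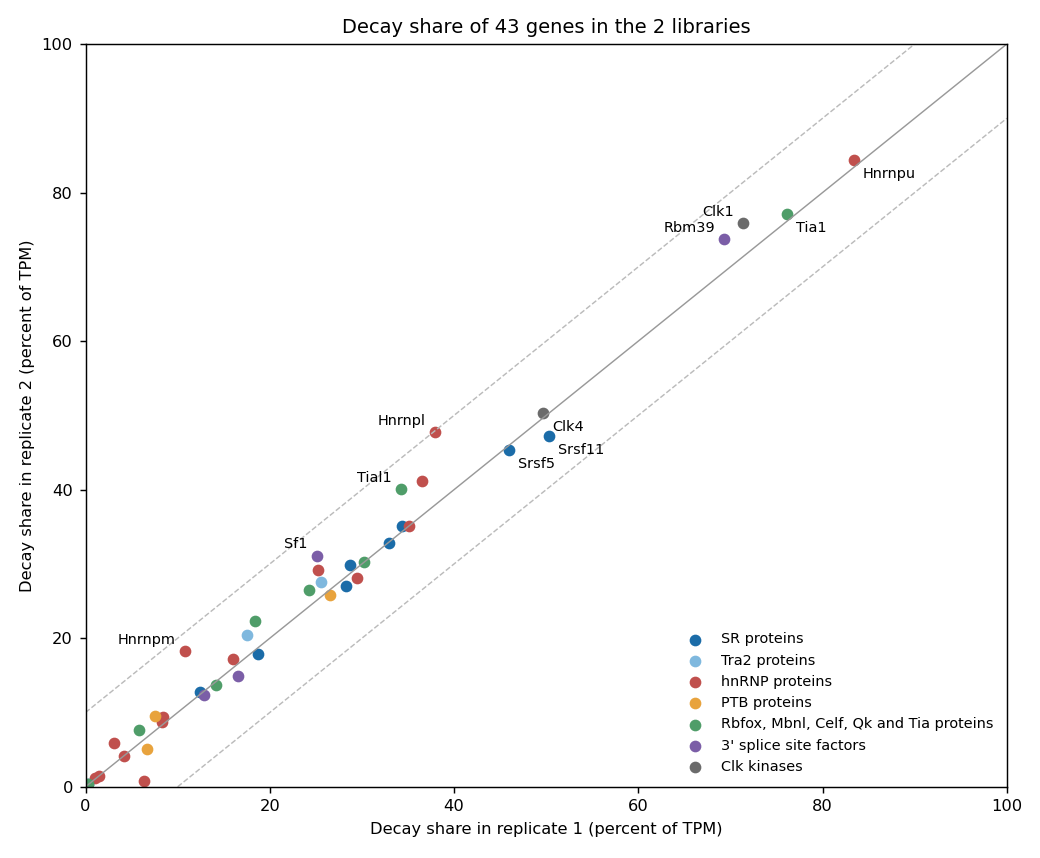
Decay share of the 43 genes in replicate 1 (horizontal axis, percent of TPM) and replicate 2 (vertical axis), coloured by role; the solid line marks equality and the dashed lines a difference of 10 points. All genes lie within the dashed lines, with Hnrnpl closest to the upper one at 37.9% and 47.8%.

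Gene levels were compared in the same way. No member differed 2-fold between the libraries with an adjusted p under 0.05 (exact two-sided binomial test with TMM library sizes, Benjamini-Hochberg over 15926 genes), against 1.07% of genes. At an unadjusted p under 0.05 of any size there were 33 members, against 4161 of 13028 protein-coding genes. At an adjusted p there were 29, against 19.2% of the 15926 genes. Of those 29, 12 were higher in replicate 1 and 17 in replicate 2. The members are more abundant than most genes, and these shares were not matched for level. The largest ratio was that of Hnrnpl at 1.25, from 271 TPM in replicate 1 to 339 TPM in replicate 2. It was the only member whose difference exceeded the 95th percentile of the 500 genes nearest in level, which 5.00% of genes do. Over all 15926 genes the libraries differed by more than sampling noise, which separate preparations of 1 sample could do too.

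The M4 annotation, with which the authors also quantified both libraries, lists 434 transcripts of the 50 genes. With it 30 members had a decay share, with a median of 27.2%, and 15 of them stood at 25% or more in both libraries. That compares with 28.9% of the 5795 genes tested the same way. Of the 30 genes, 24 moved by 5 points or less between annotations. The 5 that moved most were Hnrnpu, Qk, Srsf3, Hnrnpm and Tra2b.

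Hnrnpu stood at 83.9% and 687 TPM with M21 and at 17.9% and 152.8 TPM with M4. Under that gene M4 does not list Hnrnpu-206 and Hnrnpu-209. Entries that M4 does not list under Hnrnpu held 79.1% of its abundance with M21. Whether M4 lists such entries under another gene was not examined. The coding Hnrnpu-201 was nearly the same at 113.6 and 108.8 TPM. Qk moved the other way, from 30.3% to 82.5%. Under that gene M4 does not list its leading coding entry, Qk-204. It lists Qk-202, the NMD entry, at 23.3 and 24.1 TPM, against 2.30 and 3.80 TPM with M21. Srsf3 moved from 29.3% to 61.4%, with the retained_intron entry Srsf3-205 at 415.6 and 420.0 TPM, where it is 910 nt long, against 40.7 and 46.2 TPM with M21, where it is 2110 nt long. Hnrnpm stood at 14.5% with M21 and 3.90% with M4, and Tra2b at 19.0% and 11.2%. Gene levels differed by annotation in further members: Hnrnpa2b1 stood at 1930 TPM with M21 and 1073 TPM with M4, and Hnrnpc at 679.5 and 335.9 TPM. Shares of Tia1, Clk1, Rbm39, Clk4, Srsf11 and Srsf5 stood within 3 points of each other in both annotations.

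**Figure D5:**
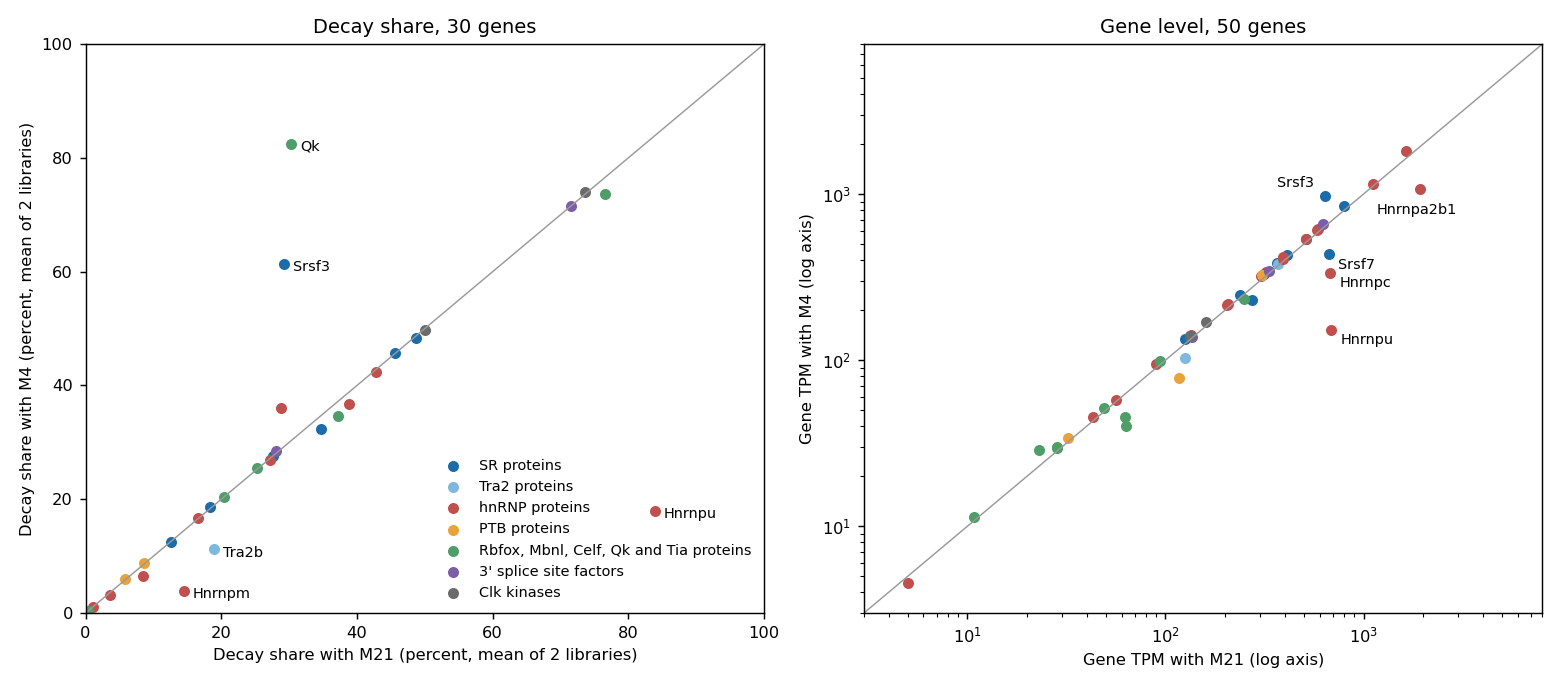
Left, decay share (percent, mean of 2 libraries) with M21 against M4 for the 30 genes that have one in both; right, gene TPM with M21 against M4 for all 50 genes (log axes); the line marks equality. Hnrnpu lies far below the line in both panels, and Qk and Srsf3 lie above it on the left.

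Reads can be shared with other genes at several of these loci. Exons of 16 members overlap a gene on the opposite strand and those of 5 members a gene on the same strand, and whether the counting used strand is not given in the sources used here. Cox20 overlaps Hnrnpu by 804 nt on the opposite strand at 96.9 and 105.2 TPM, but shares no base with Hnrnpu-206. How reads of processed pseudogenes of hnRNP genes were divided was not tested.

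Related genes gave a frame for these values. Of 14 NMD and exon junction factors, all passed 1 TPM in each library. The most abundant were the junction helicase Eif4a3 at 305 and 316 TPM, Magoh at 199.5 and 229.7 TPM and Rbm8a at 150.2 and 140.7 TPM. Decay shares could be given for 7, with a median of 40.1% and 4 at 25% or more in both libraries. The highest were those of the kinase gene Smg1 at 42.5% and 48.3%, of Smg5 at 39.4% and 46.2%, and of Smg9 at 35.8% and 47.9%. Smg9 was the one gene of that list whose share differed between the libraries by the test above.

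All 7 listed SR kinases besides Clk1 and Clk4 had decay transcripts, with a median of 41.4% and 6 at 25% or more in both. Prpf4b stood highest at 71.5% and 74.5%, ahead of Srpk2 at 45.4% and 50.9% and Clk2 at 40.5% and 50.2%. Srpk1, Prpf4b and Clk3 were the most abundant at 63.5 to 84.5 TPM. The 15 listed genes of the core spliceosome, which carries out the splicing reaction, had a median decay share of 5.49%, with 2 at 25% or more in both libraries: Sf3b1 at 62.2% and 70.8% and Prpf3 at 32.9% and 34.8%. Snrnp70 followed at 19.9% and 20.6%. Among 31 other splicing regulators, 29 reached 1 TPM in both libraries, and Nova1 and Nova2, neuronal regulators, did not. Their median decay share was 22.8% over 20 genes, with Luc7l2 at 78.0% and 77.8%, Rbm5 at 71.0% and 70.9% and Luc7l at 68.2% and 68.3%. Their shares differed between the libraries in Taf15, from 34.4% to 54.4%, and in Khdrbs3, from 5.78% to 20.2%. These calls rest on few decay reads, 16.91 and 46.05 in Taf15 and 14.93 and 44.37 in Khdrbs3. The same test called 5.93% of the 8336 genes. The most abundant of the 31 regulators were Ewsr1 at 787 and 802 TPM, Matr3 at 536 and 559 TPM and Srrm2 at 500 and 561 TPM. The median differed by role within the members too, from 8.55% in the PTB genes over 14.5% in the hnRNP genes and 29.3% in the SR genes to 61.8% in the Clk genes. No test of these steps was made.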

How the data were processed

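RNA-seq of 2 mouse limb libraries was analysed, with the depth given above. The authors deposited expected counts per gene and transcript, which need not be whole and were rounded for tests, with TPM and FPKM normalised by them for effective length and depth. Percent of gene per transcript was deposited too. Both annotations, GENCODE M21 and M4 on mm10, were used by the authors per the labels' notes and headers; the sources used here do not give the aligner, the estimating program or the use of strand. Deposited TPM covers spike-ins and tRNA entries, which were left out of library sizes.

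Symbols, transcript types, exons and sequences came from GENCODE M21 on GRCm38; M4 transcripts took their M21 type by transcript ID, and 1 of 434 had none. Decay shares used protein-coding genes at a mean of 1 TPM. Introns under 60 nt were ignored. Levels were tested with exact binomial tests with edgeR 4.0.16 TMM sizes, and shares with Fisher's exact test (SciPy 1.17.1), both adjusted by Benjamini-Hochberg. The tests were also run on simulated data. Simulated shares varied by counting error alone, so the rate of false calls of the share test between real libraries was not measured. Intervals were not given: replicates were averaged as mean of 2 libraries, and p-values measure counting error between them.

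The members, the lists and the rules were chosen with earlier results of these data known. Named genes were the 3 most abundant and the least abundant member of each role, the 12 highest and 5 lowest decay shares, members led by a decay transcript, those called between libraries, the 5 that moved most with M4 and those with printed sequences. From the other lists these were the 3 most abundant, the 3 highest shares and every called gene. Others were chosen after their values were seen. Alternatives were M4, DESeq2 1.42.0 and total-count scaling, FPKM, other minima, thresholds, transcript types, lengths and denominators, and leaving out a library.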

Additional observations from a re-analysis of the deposited data

How the results depend on the processing

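All 50 genes stayed at 1 TPM or more in both libraries with M4, FPKM, rescaled TPM and either library, and 49 at 10 TPM. The median decay share of 25.3% was 24.2% to 25.9% with 1 library left out. It was 27.2% with M4, 27.1% with processed_transcript entries counted as decay, 20.6% with transcripts of support level 1 or 2, 20.9% with all transcripts in the denominator and 15.1% from expected counts not divided by length. With NMD entries alone it was 9.79%, and with retained_intron entries alone 13.0%. Alternatives added after seeing the data gave 28.1% for genes with 4 or more decay transcripts, 7.84% for genes with fewer, and 27.4% at a mean of 100 TPM. The count of 21 genes at 25% was 21 to 22 with 1 library left out, 3 with NMD alone (8.82% of 34 members, a lower share than the 657 of 3645 genes), 12 with retained_intron alone (29.3% against 24.9%), 11 from undivided counts (25.6% against 18.4%), 4 at 50% and 4 among genes with under 4 decay transcripts. The 0 genes with a differing share became 4 at 5 points (Hnrnpl, Hnrnpm, Hnrnpr and Sf1), 1 with M4 (Hnrnpl) and 2 at support level 1 or 2 (Hnrnpl and Qk), and stayed 0 under the other 7 alternatives. The 0 genes with a differing level became 29 with no minimum fold and stayed 0 under the other 6. Single decay shares moved by more than the spread between libraries in 38 of 43 genes from undivided counts and in 9 of 30 with M4; the cause was not tested. Neither between-library test can leave out a library. No paired analysis was possible because there is 1 group. Depth limits Mbnl3 most, with 2.20 and 3.32 decay reads.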
